A study of Sus scrofa with 61 samples.

Results

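The genes considered here encode 2 muscle ubiquitin ligases (FBXO32, or atrogin-1, and TRIM63, or MuRF1), 2 forkhead transcription factors (FOXO1 and FOXO3) and proteins of autophagy (BNIP3, MAP1LC3B, GABARAPL1 and SQSTM1), and they were followed in the longissimus muscle of pig fetuses. Probes were taken by symbol, from the array's own gene names or from the gene lists that accompany the study. Matching by symbol found 21 probes for 6 of the 8 genes among 60306 spots that carried 11152 symbols in all, with 5 probes for FBXO32, 2 for TRIM63, 7 for FOXO1, 4 for FOXO3, 2 for GABARAPL1 and 1 for SQSTM1. No probe carried the symbol BNIP3 or MAP1LC3B, so that both genes were not analysed here. Probes that the scanner software marked as well above background in 80% or more of the fetuses of any group were kept, which held for 20 of the 21. FOXO1 probe 7 was marked so on 22 of 61 arrays and was left out. The array itself names 17 of the 20 kept probes by their gene. FOXO1 probes 1 and 2 and FOXO3 probe 3 were named only through a list of probes called for age and genotype on these same arrays, so that a call of these 3 is no independent evidence. Their values are given below as a description with no p-value. The figures, the counts over all 20 probes and the gene counts by main probe still include their calls. Counts are therefore also given for the 17.

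RNA of 61 male fetuses obtained by caesarean was hybridized to 1-colour porcine oligonucleotide arrays, 1 array per fetus. Fetuses were purebred Large White (LW), purebred Meishan (MS), LWMS (Meishan sow and Large White boar) or MSLW (Large White sow and Meishan boar), and none was treated. At day 90 of gestation there were 8 fetuses of each genotype, and at day 110 there were 9 LW, 7 MS, 8 LWMS and 5 MSLW. Litters held both purebred and crossbred fetuses after insemination with mixed semen, and the sample labels do not give the sow, so that littermates counted as separate fetuses and p-values measure the spread between fetuses only. The arrays lay on 8 slides with 6 to 8 of the 8 groups on each, and 34347 to 45684 spots per array were well above background.

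The ubiquitin ligases tag proteins of the muscle fibre for breakdown by the proteasome, and FBXO32 and TRIM63 are known for their rise in wasting muscle. FOXO transcription factors are held in the cytoplasm when insulin and insulin-like growth factor signal through AKT, and in the nucleus they switch on both ligases and many genes of autophagy. In autophagy a membrane closes around cell material and delivers it to the lysosome: GABARAPL1 belongs to the ATG8 proteins that are coupled to this membrane, and SQSTM1 (p62) is a receptor that ties ubiquitin-tagged cargo to it.

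Several results below turn on single probes, so the 60-base sequences of 6 of them are shown as the scanner files give them, 5′ to 3′. FBXO32 probes 3 and 5, FOXO1 probe 3 and FOXO3 probe 2 were annotated by the array design to the pig mRNA of their gene, starting at bases 924, 346, 2117 and 1561 of it. Capitals mark the longest stretch each shares with any other member probe, which was 7 to 9 bases. No genome of the pig was used, so that chromosome positions are not given.

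FBXO32 probe 3: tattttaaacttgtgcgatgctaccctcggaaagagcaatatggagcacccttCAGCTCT
FBXO32 probe 5: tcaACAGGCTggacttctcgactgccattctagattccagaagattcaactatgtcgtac
TRIM63 probe 2: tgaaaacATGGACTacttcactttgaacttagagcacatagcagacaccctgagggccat
FOXO1 probe 5: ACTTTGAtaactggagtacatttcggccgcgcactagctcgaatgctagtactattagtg
FOXO1 probe 3: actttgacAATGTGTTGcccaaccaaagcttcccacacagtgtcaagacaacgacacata
FOXO3 probe 2: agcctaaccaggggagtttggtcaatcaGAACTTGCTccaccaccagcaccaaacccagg

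The 2 FOXO1 probes shown share no stretch longer than 7 bases with each other. FOXO1 probes 1 and 2 instead share 51 of their 60 bases, and are close to 1 measurement.

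All values are background-corrected signals, quantile normalized between arrays, on the log2 scale, where 1 unit is a doubling. For each gene the main probe (probe 1) is the kept probe with the highest mean, and levels of different probes were not compared. Differences come from a linear model of the 8 groups fitted with limma to all 42436 kept probes, given with their standard error (SE), and were called at an adjusted p under 1% (Benjamini-Hochberg over all kept probes).

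The first question was how these genes changed between day 90 and day 110. The genes were chosen with earlier results of these data known, so a count above the share over all probes is no independent evidence. By main probe, all 6 genes were called higher at day 110 in LW, where 21.8% of all kept probes were called higher, 23.5% lower and 45.3% in either direction. For MS fetuses 3 of the 6 genes were called higher, with a background of 28.6% higher, 28.0% lower and 56.6% in all. This count in MS was 6 of 6 with scaling to the 75th percentile or with the mean of each gene's probes. Among LWMS fetuses 4 of the 6 were called higher (background 25.1% higher, 25.7% lower, 50.9% in all), and among MSLW fetuses again 4 of the 6 (20.8%, 23.8% and 44.6%), or 2 of the 6 without the MSLW fetus of day 110 numbered 5. These counts use the FOXO1 main probe, which the array does not name. With array-named probes alone, 6, 4, 5 and 4 of the 6 genes were called higher in LW, MS, LWMS and MSLW. Over the 17 probes that the array names, 17 were higher for LW, 14 for MS, 16 for LWMS and 13 for MSLW, and none was lower in any genotype. Over all 20 kept probes the counts were 20, 15, 17 and 14. The median change of the 6 main probes, in the same order of genotypes, was 0.97, 0.54, 0.64 and 0.67. With array-named probes alone it was 1.03, 0.54, 0.64 and 0.67, while the median over all kept probes was 0.03, 0.03, 0.04 and 0.02. When each value was set against the mean of its genotype, the difference between day 110 and day 90 was positive on 8 of 8 slides for each of the 20 probes. These 20 include the 3 named through the list. The share of all kept probes with 8 of 8 was not computed, so how common this is cannot be said. Because RNA came from whole muscle, a change in the number of cells of a type and a change in RNA per cell cannot be told apart.

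**Figure D1:**
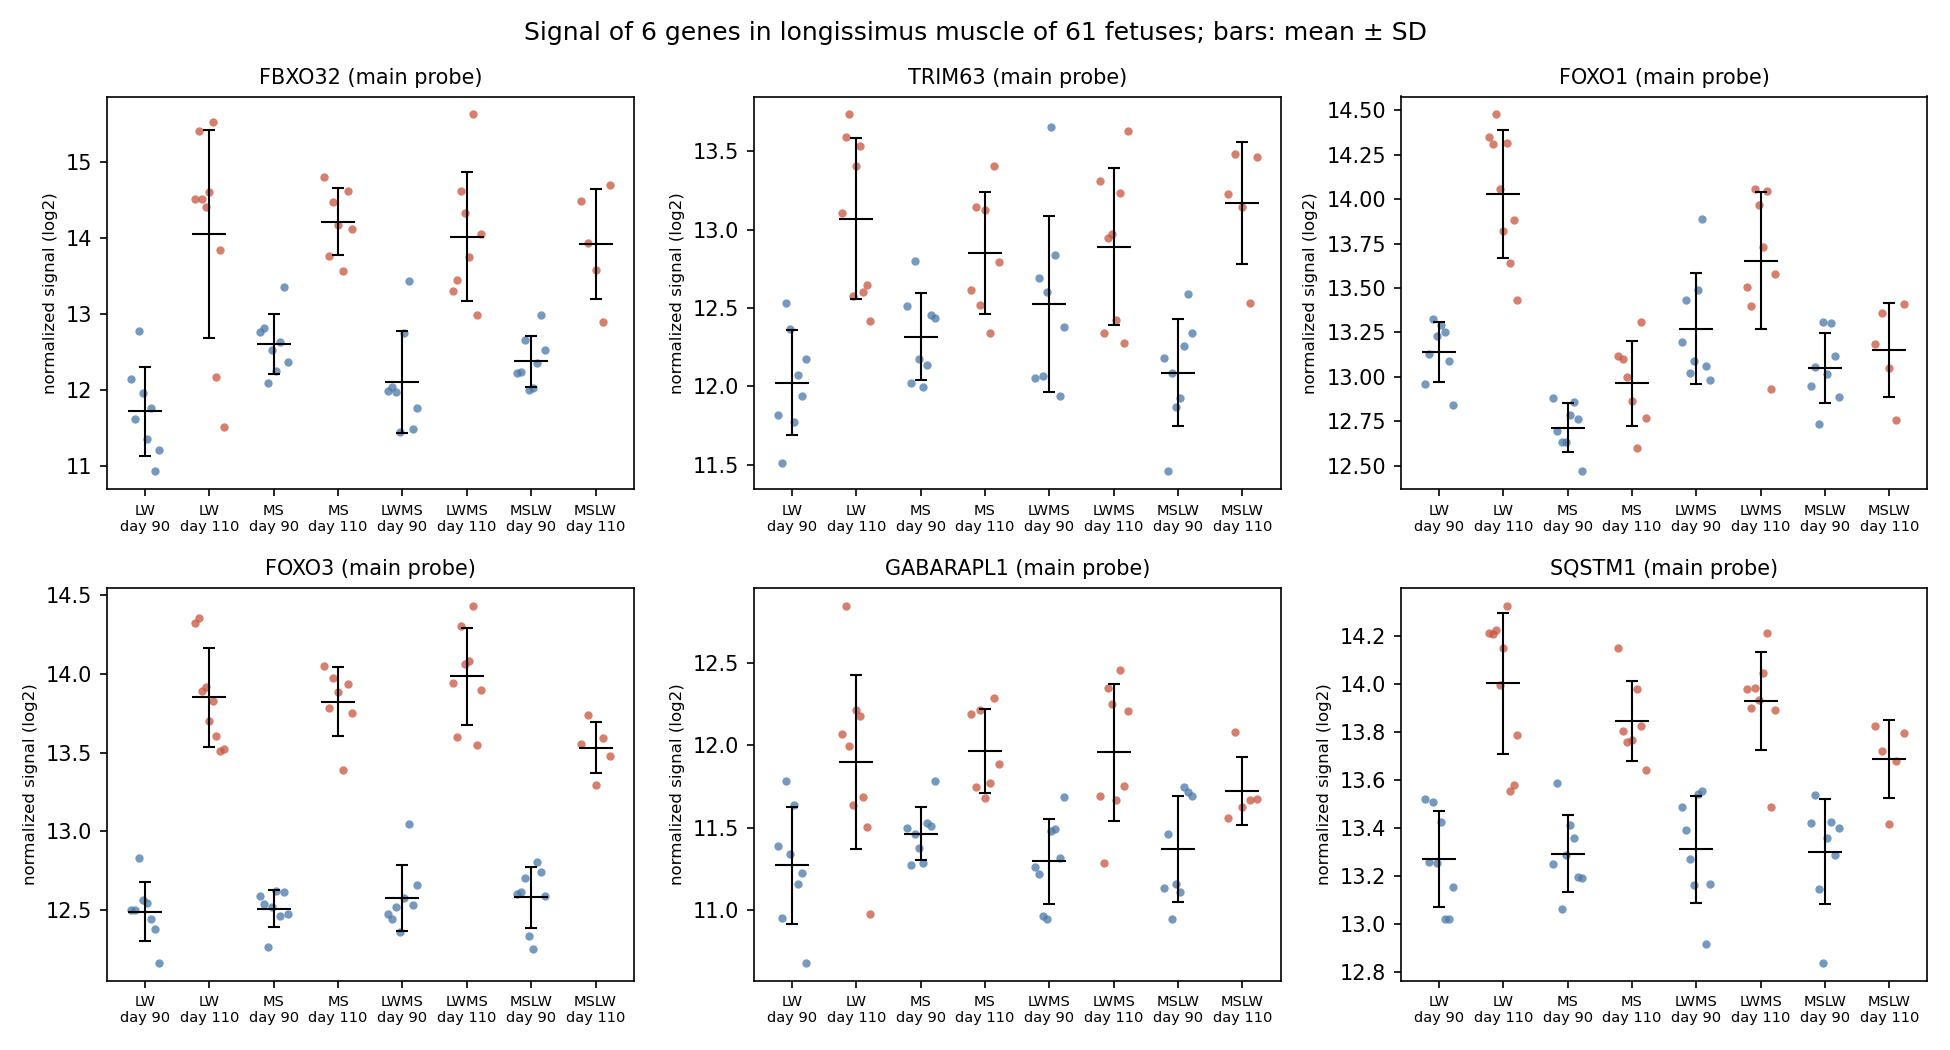
Normalized signal (log2) of the main probe of each of the 6 genes in the 8 groups; each point is 1 fetus, blue for day 90 and red for day 110, and bars give the mean ± SD. For the main probe of FOXO3 no fetus of day 110 overlapped those of day 90 of its genotype, while 2 LW fetuses of day 110 lay within the day 90 range for FBXO32.

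FBXO32, the substrate-binding part of a ubiquitin ligase of muscle, changed most with age among the 6 main probes in all 4 genotypes. In LW the signal ran from 10.93 over a median of 11.70 to 12.77 at day 90, and from 11.51 over 14.51 to 15.53 at day 110. In MS it ran from 12.09 (median 12.58) to 13.36 at day 90 and from 13.57 (median 14.17) to 14.80 at day 110. The MS groups did not overlap, whereas 2 LW fetuses of day 110, at 11.51 and 12.17, lay within the range of day 90 and the other LW fetuses of that day lay above it. In LWMS the range was 11.45 to 13.43 (median 11.98) at day 90 and 12.99 to 15.62 (median 13.90) at day 110. In MSLW it was 12.0001 to 12.99 (median 12.30) at day 90, and the 5 fetuses of day 110 had 12.90, 13.57, 13.93, 14.49 and 14.69. Both crosses thus overlapped slightly between the ages.

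The FBXO32 differences amounted to 2.33 ± 0.36 (SE) in LW, a 5.03-fold rise (adjusted p = 1.49e-07), and to 1.61 ± 0.38 in MS, a 3.06-fold rise (adjusted p = 0.000236). The crosses rose by 1.90 ± 0.37 (LWMS, adjusted p = 1.28e-05) and by 1.54 ± 0.42 (MSLW, adjusted p = 0.00166). Without the MSLW fetus of day 110 numbered 5 the last change was 1.34 (adjusted p = 0.0106) and was no longer called. FBXO32 probes 2 to 5, which share at most 7 bases with each other, gave rises of 2.48 to 2.67 for LW, 1.96 to 2.20 for MS, 2.06 to 2.23 for LWMS and 1.85 to 2.0002 for MSLW, all called. Within slides the age difference of the main probe ranged from 1.09 to 2.55. Its change did not differ detectably between MS and LW (-0.72 ± 0.53, adjusted p = 0.396).

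The spread of FBXO32 was widest in LW at day 110, where the SD was 1.36 and the highest fetus was 16.1-fold above the lowest. The SD was 0.85 in LWMS, 0.72 in MSLW and 0.44 in MS of the same day, and 0.34 to 0.67 in the day 90 groups. The LW fetus with the lowest FBXO32 (11.51, fetus 9) also had the lowest TRIM63 (12.42), FOXO1 (13.43) and GABARAPL1 (10.98) of the 9 LW fetuses of day 110, while its FOXO3 (13.52) ranked 2 and its SQSTM1 (13.79) ranked 3 from the lowest. The order of the FBXO32 means was MS, LW, LWMS and MSLW of day 110, followed by MS, MSLW, LWMS and LW of day 90. Of the 7 gaps between neighbours in this order, only the 1.31 between MSLW of day 110 and MS of day 90 exceeded the SD of both neighbours.

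TRIM63, a RING-finger ligase that acts on thick-filament proteins of the sarcomere, had main-probe signals between 11.51 and 12.53 in LW at day 90 (median 12.01) and between 12.42 and 13.73 at day 110 (median 13.10). In MS the signals were 11.999 to 12.80 (median 12.31) and 12.34 to 13.41 (median 12.79). In both genotypes the ages overlapped. TRIM63 rose by 1.04 ± 0.20 in LW, or 2.06-fold (adjusted p = 1.54e-05), and by 1.08 ± 0.24 in MSLW, or 2.11-fold (adjusted p = 0.000118). The difference was 0.53 ± 0.22 in MS (adjusted p = 0.0282) and 0.36 ± 0.21 in LWMS (adjusted p = 0.131). TRIM63 probe 2, shown above, was called higher in all 4 genotypes, with 1.30 for LW, 1.24 for MS, 0.91 for LWMS and 1.40 for MSLW, so that the 2 probes disagree for MS and LWMS. In these groups the call of the main probe also turned with the scaling, since scaling to the 75th percentile gave 0.86 in MS (adjusted p = 0.000566) and 0.62 in LWMS (adjusted p = 0.00964). No gap between neighbours in the order of its 8 group means exceeded both SDs.

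**Figure D2:**
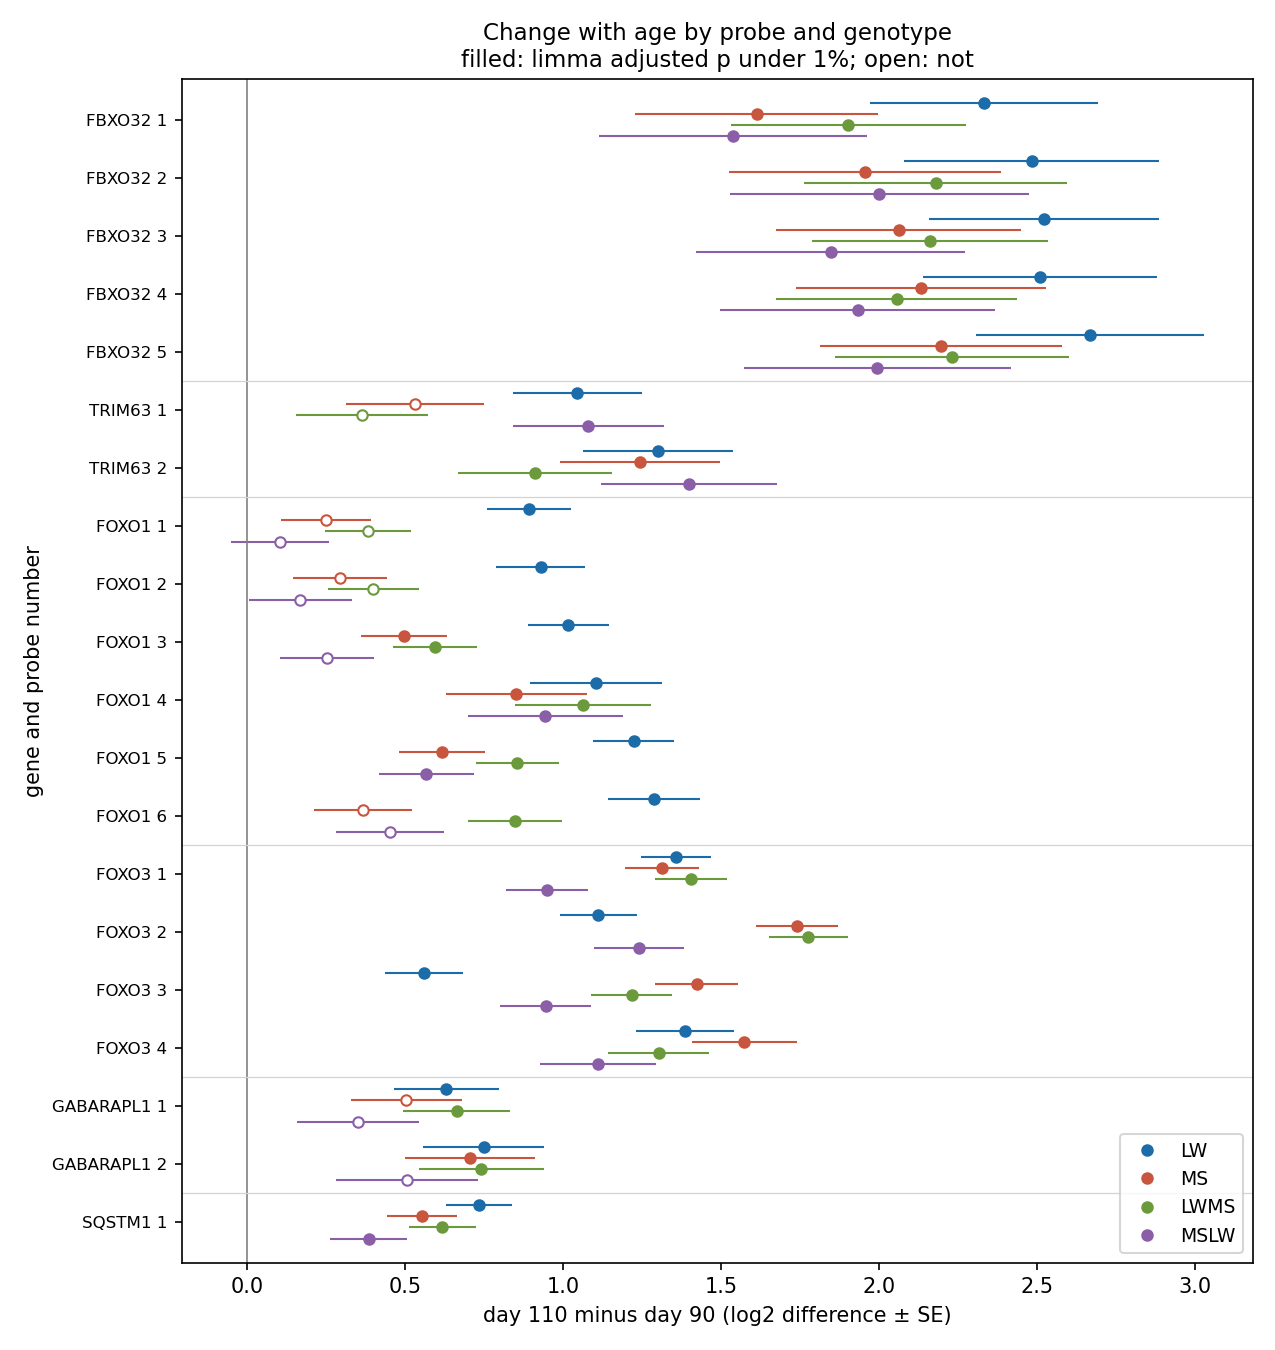
Difference between day 110 and day 90 (log2 ± SE) for each of the 20 kept probes in the 4 genotypes; filled points have a limma adjusted p under 1%. The 5 FBXO32 probes lie between 1.54 and 2.67, and the FOXO1 probes differ among themselves in MS, LWMS and MSLW. FOXO1 probes 1 and 2 and FOXO3 probe 3 were named through the list of called probes.

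FOXO1, the forkhead factor that AKT keeps out of the nucleus, was called higher at day 110 in LW by each of the 4 kept probes that the array names, while these probes gave unlike calls in MS and MSLW. FOXO1 probe 3, the brightest of the 4, ranged from 11.86 over a median of 11.98 to 12.22 in LW and from 11.51 over 11.66 to 11.83 in MS at day 90. At day 110 it ran from 12.47 over 13.07 to 13.45 in LW and from 11.86 over 12.27 to 12.44 in MS. LW fetuses of day 110 lay above all LW fetuses of day 90 and above all MS fetuses of either age. The MS ages did not overlap either, whereas those of both crosses did, with 11.85 to 12.58 (median 12.09) and 12.06 to 13.12 (median 12.74) for LWMS and 11.61 to 12.21 (median 11.97) and 11.63 to 12.52 (median 12.37) for MSLW.

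FOXO1 probe 3 rose by 1.02 ± 0.13 in LW, or 2.02-fold (adjusted p = 7.76e-10), by 0.50 ± 0.14 in MS (adjusted p = 0.00124) and by 0.59 ± 0.13 in LWMS (adjusted p = 9.41e-05). It had 0.25 ± 0.15 in MSLW (adjusted p = 0.149). FOXO1 probes 4, 5 and 6 were called higher in LW (1.103, 1.22 and 1.29) and in LWMS (1.06, 0.85 and 0.85). In MS, probes 4 and 5 were called higher (0.85 and 0.62), and probe 6 had 0.37 ± 0.15 (adjusted p = 0.033). In MSLW the same pair was called higher, by 0.94 ± 0.25 (probe 4, adjusted p = 0.000898) and 0.57 ± 0.15 (probe 5, adjusted p = 0.00106), and probe 6 had 0.45 ± 0.17 (adjusted p = 0.0209).

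The main probe of FOXO1, which the array does not name, ranged from 12.84 (median 13.18) to 13.33 in LW and from 12.47 (median 12.73) to 12.88 in MS at day 90. At day 110 the range was 13.43 to 14.48 (median 14.06) in LW and 12.60 to 13.31 (median 12.9987) in MS. The 2 ages overlapped in MS and in both crosses, and did not in LW. The differences with age were 0.89 ± 0.13 for LW, 0.25 ± 0.14 for MS, 0.38 ± 0.14 for LWMS and 0.10 ± 0.16 for MSLW. Scaling to the 75th percentile gave 0.61 for MS and 0.73 for LWMS.

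FOXO3, the forkhead factor best known for switching on autophagy genes of muscle, rose in all 4 genotypes, and the ages did not overlap in any of them for the main probe. This probe ranged from 12.17 (median 12.50) to 12.83 in LW of day 90 and from 13.51 (median 13.83) to 14.35 in LW of day 110. The same values in MS were 12.27 (median 12.53) to 12.62 and 13.39 (median 13.88) to 14.05. LWMS ran from 12.36 (median 12.53) to 13.04 and from 13.55 (median 14.00) to 14.43. MSLW ran from 12.26 (median 12.61) to 12.80 at day 90, and its 5 fetuses of day 110 had 13.30, 13.48, 13.55, 13.59 and 13.74.

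The rise of FOXO3 was 1.36 ± 0.11 in LW (2.56-fold, adjusted p = 4.35e-16), 1.31 ± 0.12 in MS (2.48-fold), 1.41 ± 0.11 in LWMS (2.65-fold) and 0.95 ± 0.13 in MSLW (1.93-fold, adjusted p = 8.37e-09). FOXO3 probes 2 and 4 were called higher in all 4 genotypes as well. Probe 2 rose by 1.11 ± 0.12 in LW and 1.74 ± 0.13 in MS, and probe 4 by 1.38 ± 0.16 and 1.57 ± 0.17. FOXO3 probe 3, which the array does not name, had 0.56 ± 0.12 in LW and 1.42 ± 0.13 in MS. For these probes the ages overlapped in some groups: LW of day 90 reached 8.36 on probe 2 and 7.42 on probe 3, where the lowest LW fetuses of day 110 had 8.28 and 6.99. LWMS of day 90 reached 6.83 on probe 4, where the lowest LWMS fetus of day 110 had 6.14. In the order of the main-probe means, the 4 groups of day 110 stood above the 4 of day 90 by a gap of 0.95, which exceeded the SD of both neighbours. MSLW stood lowest among the groups of day 110, 0.29 below MS, a gap that also exceeded both SDs.

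GABARAPL1, of the ATG8 proteins, had smaller changes. Its main probe ranged from 10.68 to 11.79 in LW of day 90 (median 11.28) and from 10.98 to 12.85 at day 110 (median 11.99). In MS it ran from 11.27 to 11.78 (median 11.48) and from 11.68 to 12.28 (median 11.89). The ages overlapped in both breeds. GABARAPL1 rose by 0.63 ± 0.17 in LW (adjusted p = 0.000921) and by 0.66 ± 0.17 in LWMS (adjusted p = 0.000634), about 1.55-fold and 1.58-fold. MS, at 0.50 ± 0.18, fell just short of the threshold (adjusted p = 0.0103) and passed it with the slide as a block (adjusted p = 0.0078). MSLW had 0.35 ± 0.19 (adjusted p = 0.118). GABARAPL1 probe 2 rose by 0.75, 0.71 and 0.74 in LW, MS and LWMS and had 0.51 ± 0.23 in MSLW (adjusted p = 0.0517).

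SQSTM1, the ubiquitin-binding receptor, was read by 1 probe. It ranged from 13.02 (median 13.25) to 13.52 in LW of day 90 and from 13.55 (median 14.15) to 14.32 in LW of day 110, without overlap. The ranges in MS, 13.06 to 13.59 and 13.64 to 14.15, did not overlap either. SQSTM1 rose by 0.73 ± 0.10 in LW (1.66-fold, adjusted p = 1.83e-08), 0.55 ± 0.11 in MS (adjusted p = 1.75e-05), 0.62 ± 0.11 in LWMS (adjusted p = 1.34e-06) and 0.39 ± 0.12 in MSLW (adjusted p = 0.006). The last call was lost without MSLW fetus 1, 2, 4 or 5 of day 110, which gave 0.35, 0.38, 0.39 and 0.36 (adjusted p from 0.0115 to 0.0222).

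The tissue matched its label at both ages. All 9 fibre markers were measured, and their summed signal ranged from 20.69 to 20.88 at day 90 and from 20.85 to 21.02 at day 110 over all fetuses (log2). Of the 9, 4 were called higher at day 110 for LW, 5 for MSLW and 6 each for MS and LWMS, and 1, MYLPF in MS (-0.14 ± 0.05), was lower. With scaling to the 75th percentile 7, 8, 9 and 9 were higher and none was lower. ACTA1, the skeletal actin, had group means between 18.74 and 18.98. All 7 fibroblast markers were called lower at day 110 in each genotype, and their summed signal ranged from 18.75 to 19.14 at day 90 and from 16.47 to 17.89 at day 110. Endothelial markers were called lower for 4 of 6 and higher for 1 of 6 in each genotype, and macrophage markers were lower for 4 of 6 in LW and for 3 of 6 elsewhere. Satellite cell markers were lower for 2 of 5 in LW and MSLW and for 3 of 5 in MS and LWMS, while PAX7 was called higher in LW (0.56), MS (1.70) and LWMS (0.97). Of 5 Schwann cell markers, 2 were higher for LW and MSLW, 1 for MS and 3 for LWMS, and none was lower. Of 5 adipocyte markers 1, CIDEC, was higher in each genotype, and 2 were lower in MS and 1 in LWMS. Of 7 erythroid markers 4 were measured, and 2 of these were lower in each genotype. Of all kept probes, 20.8% to 28.6% were called higher at day 110 and 23.5% to 28.0% lower, depending on the genotype. The part of the marker changes in the changes of the 6 genes was not tested.

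The second question was whether MS and LW differed at the same age. At day 90 none of the 20 probes was called, against 12.8% of all kept probes (6.23% higher and 6.61% lower in MS). Limma's unadjusted p was under 5% for 10 of the 20 probes, or 8 of the 17 that the array names, and for 30.6% of all kept probes, and a fit without moderation called none of the 20 either. FBXO32 was 0.88 ± 0.37 higher in MS (adjusted p = 0.0882), on 7 of 8 slides. This SE comes from 1 spread shared by all 8 groups. The SD of FBXO32 was 0.58 in LW and 0.39 in MS of day 90, but 1.36 in LW of day 110. The missing call thus does not show that the breeds were alike at day 90. The FOXO1 probes differed in sign. Probe 3 was lower in MS (-0.33 ± 0.13, adjusted p = 0.0704) on 8 of 8 slides, and the main probe (-0.43 ± 0.14) and probe 2 (-0.44 ± 0.14) were lower on 8 of 8 as well. Probes 6, 4 and 5 had positive differences on 7, 6 and 5 of 8 slides (0.37, 0.17 and 0.01 over all fetuses).

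At day 110, 4 of the 17 probes that the array names were called, 1 higher and 3 lower in MS, where 13.7% and 15.2% of all kept probes were called higher and lower, 29.0% together. Over all 20 probes, which include the 3 named through the list, 7 were called, 2 higher and 5 lower. All of them belonged to the FOXO genes, which hold many of the 20 probes. Among the 17, the share called was not above that over all kept probes. FOXO1 probe 3 was 0.85 ± 0.13 lower in MS, or 1.80-fold (adjusted p = 6.29e-07), its groups did not overlap, and the difference was negative on 6 of 6 slides that held both breeds (-1.40 to -0.69). FOXO1 probes 5 and 6 were lower by 0.60 and 0.55, also on 6 of 6 slides. The main probe and probe 2 both had a difference of -1.07 ± 0.14. FOXO1 probe 4 ran from 9.26 over 10.94 to 11.54 in LW and from 10.29 over 10.66 to 11.41 in MS, with a difference of -0.08 ± 0.22 (adjusted p = 0.8), and was lower in MS on 5 of 6 slides (-0.84 to 0.17). The LW value of 9.26 belonged to fetus 9, and the next was 10.64. Without this fetus the difference of FOXO1 probe 4 was -0.28 (adjusted p = 0.257). The difference between FOXO1 probes was not tested, nor was whether the breeds differ in sequence under any of these probes.

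**Figure D3:**
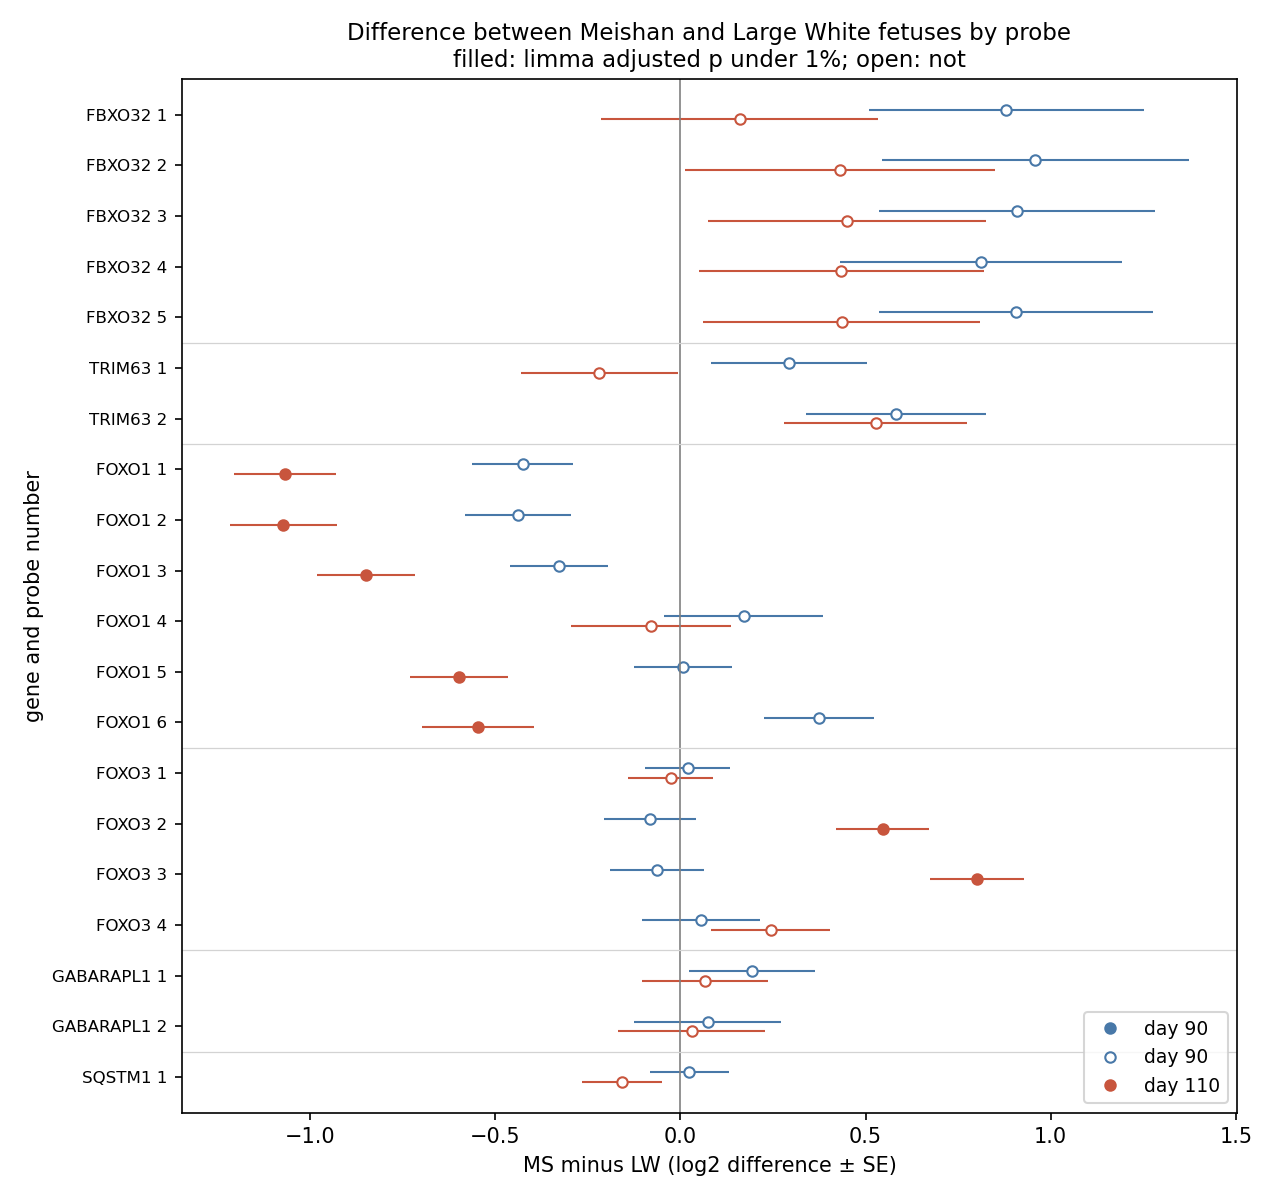
MS minus LW (log2 difference ± SE) for each of the 20 kept probes at day 90 and day 110; filled points have a limma adjusted p under 1%. Filled points occur only at day 110, for 5 FOXO1 probes (negative) and for FOXO3 probes 2 and 3 (positive). FOXO1 probes 1 and 2 and FOXO3 probe 3 were named through the list of called probes.

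FOXO3 probe 2 ranged from 8.28 (median 8.49) to 9.18 in LW of day 110 and from 8.78 (median 9.03) to 9.51 in MS, and was 0.55 ± 0.13 higher in MS (adjusted p = 0.000371). FOXO3 probe 3 ranged from 6.99 (median 7.61) to 8.01 in LW and from 8.00 (median 8.38) to 8.63 in MS, a difference of 0.80 ± 0.13. For both, 1 LW fetus or more reached into the MS range, and both were higher in MS on 6 of 6 slides (0.23 to 0.72 for probe 2 and 0.41 to 0.98 for probe 3). The main probe (-0.03 ± 0.11, adjusted p = 0.878) and FOXO3 probe 4 (0.24 ± 0.16, adjusted p = 0.235) were not called. The mean of the 4 FOXO3 probes, which includes probe 3, was 0.39 higher in MS.

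**Figure D4:**
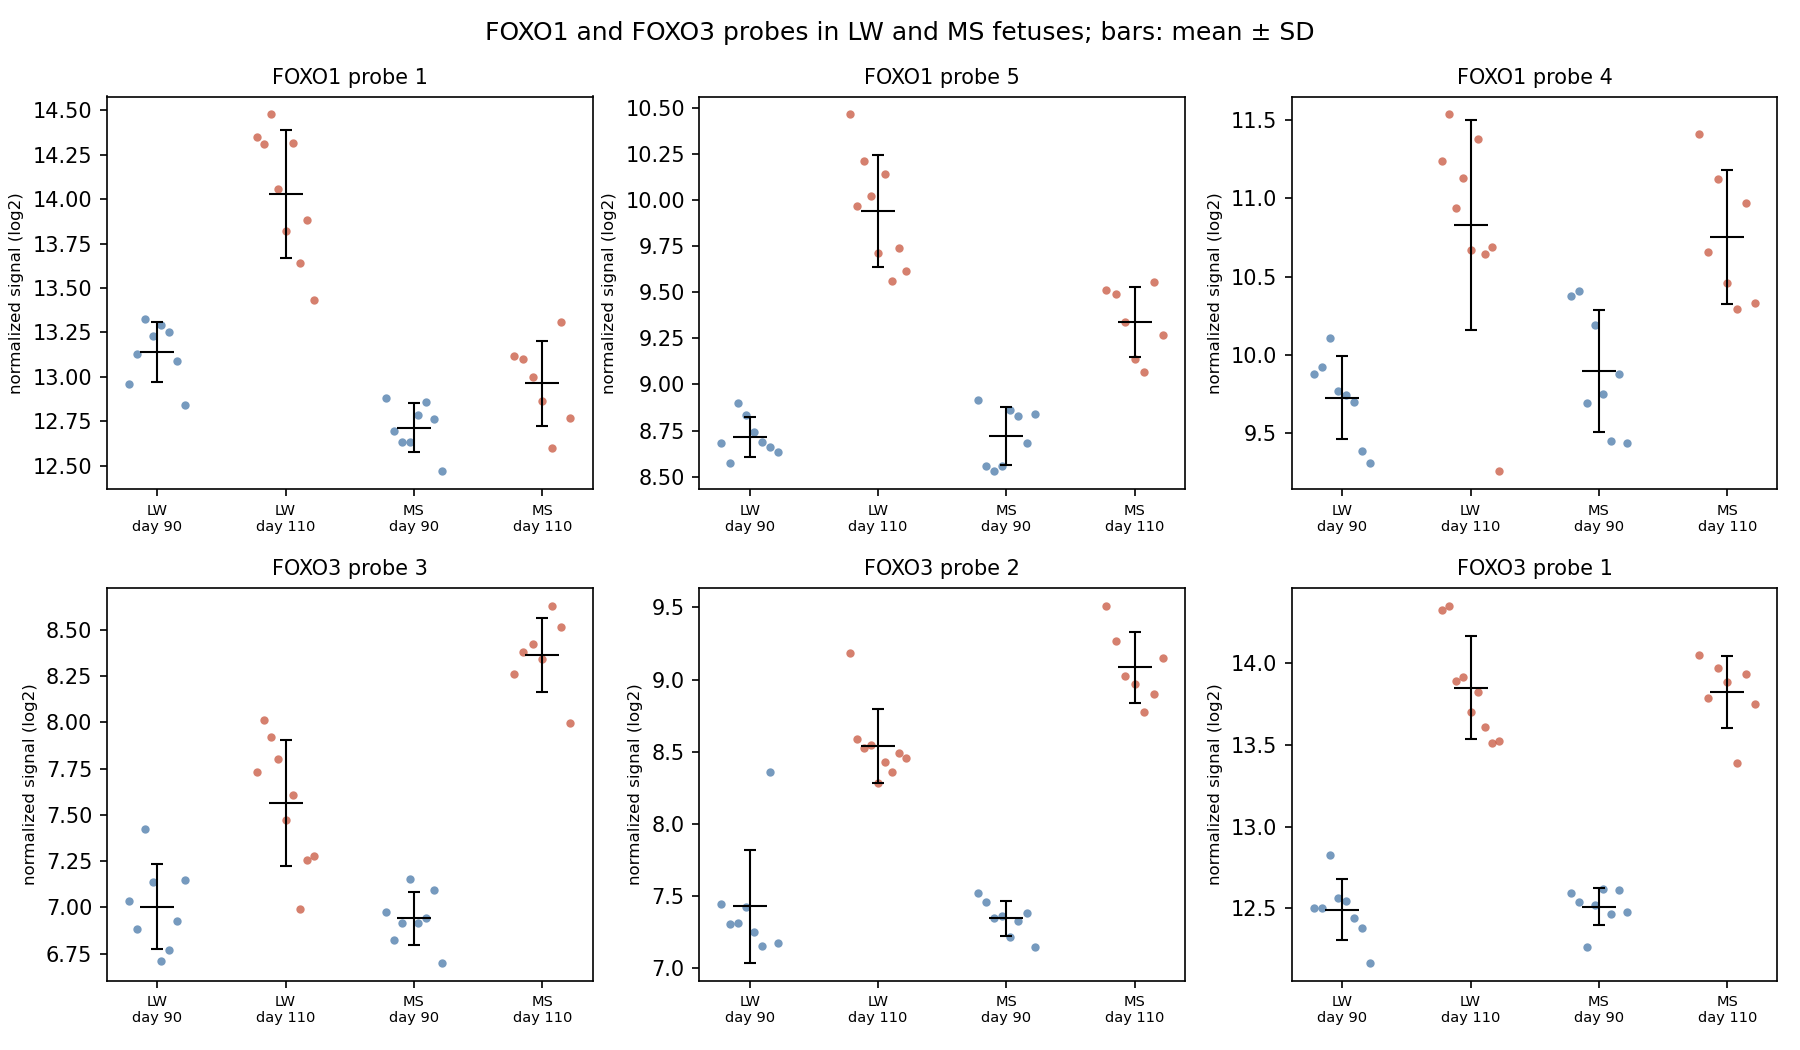
Normalized signal (log2) of 3 FOXO1 and 3 FOXO3 probes in LW and MS fetuses; each point is 1 fetus, blue for day 90 and red for day 110, and bars give the mean ± SD. At day 110 the MS fetuses lie lower for FOXO1 probes 1 and 5 and overlap with LW throughout for probe 4, while for FOXO3 they lie higher for probes 3 and 2 and overlap throughout for probe 1.

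FBXO32 (0.16 ± 0.37), TRIM63 (-0.22 ± 0.21), GABARAPL1 (0.07 ± 0.17) and SQSTM1 (-0.16 ± 0.11) were not called between MS and LW at day 110 (differences ± SE). Beside the FOXO results, 6 of 7 fibroblast markers were called lower in MS at day 110 (median -1.04), against 15.2% of all kept probes. Their summed signals ran from 16.47 to 16.85 in MS and from 17.14 to 17.89 in LW. At day 90 none of them was called between the breeds. Their part in the FOXO differences was not tested.

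The change with age itself was called different between MS and LW for 1 of the 17 probes that the array names, where 2.56% of all kept probes were called larger and 3.40% smaller in MS, 5.96% together. This was FOXO1 probe 6, which rose less in MS (-0.92 ± 0.21, adjusted p = 0.00217). The share called among the 17 was close to that over all kept probes. FOXO1 probe 3 had -0.52 ± 0.19 (adjusted p = 0.0515) and FOXO3 probe 2 had 0.63 ± 0.18 (adjusted p = 0.0119). Of the probes named through the list, FOXO3 probe 3 had 0.86 ± 0.18 and the main probe of FOXO1 had -0.64 ± 0.19, given as a description only.

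The crosses allowed the maternal and the paternal genotype to be entered separately in a model with age, both parental genotypes and their pairwise interactions. Maternal genotype cannot be told apart here from the uterus of the sow or, in these male fetuses, from the X chromosome. Littermates share the genotype of the sow and the day, and the sow was not in the model. The p-values of the maternal interaction therefore do not measure the spread between sows. The age by maternal genotype interaction was called for 1 of the 17 probes that the array names, against 3.04% of all kept probes (1.16% positive and 1.88% negative). This was FOXO3 probe 2 (0.59 ± 0.13, adjusted p = 0.00191), for which fetuses of MS sows rose more. FOXO3 probe 3, named through the list, had 0.58 ± 0.13, given as a description only. In the 4 genotypes, ordered as LW, MSLW, LWMS and MS, the rise of FOXO3 probe 3 was 0.56, 0.95, 1.22 and 1.42, and that of FOXO3 probe 2 was 1.11, 1.24, 1.78 and 1.74. The age by paternal genotype interaction was called for none of the 20 probes (background 0.462%, with 0.137% positive and 0.325% negative), while limma's unadjusted p was under 5% for 7 of the 20, 4 of the 17 and 14.1% of all kept probes. FOXO1 probe 6 was nearest, at -0.65 ± 0.16 or less rise with an MS boar (adjusted p = 0.016).

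Between the reciprocal crosses no probe was called at day 90 (background 0.500%, with 0.351% higher and 0.148% lower in MSLW) or at day 110 (0.917%, with 0.547% higher and 0.370% lower), and a fit without moderation called none. The unadjusted p was under 5% for 1 of 20 probes at day 90, against 9.54% of all kept probes, and for 8 of 20 at day 110, against 15%. Those 8, of which 6 are among the 17 that the array names, were FOXO1 probes 1, 2, 3, 5 and 6 and FOXO3 probes 1, 2 and 4, lower in MSLW by 0.43 to 0.56. The mean of the crosses was called away from the mean of the parents for none of the 20 probes at day 90 (background 0.0495%, all of it higher in the crosses) or at day 110 (background 0.0778%, with 0.0754% higher and 0.00236% lower). The unadjusted p of limma was under 5% for 4 of 20 and for 0 of 20, against 3.62% and 7.02% of all kept probes, and a fit without moderation called 0 at both ages.

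Variation between fetuses of the same group was also compared among the 6 genes. After group and slide means were removed by a linear fit, the residuals of the 15 pairs of main probes correlated over the 61 fetuses with r between 0.29 (TRIM63 and FOXO3) and 0.69 (FBXO32 and SQSTM1). FBXO32 with FOXO1 gave 0.66 and FOXO1 with FOXO3 gave 0.65. Such values describe arrays that share slides and normalization, and no test was made. FOXO1 probe 4 went with FOXO1 probe 1 at 0.55 and with FBXO32 at 0.71, while FOXO1 probes 2, 3, 5 and 6 went with FOXO1 probe 1 at 0.72 to 0.97. The FBXO32 probes went together at 0.84 to 0.98, the FOXO3 probes at 0.23 to 0.50.

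Among 18221 kept probes with a gene symbol, those most like each gene in these residuals were as follows. FBXO32 was followed most closely by GABARAP (0.72), HBP1 (0.72) and FOXO1 (0.71). TRIM63 had KLF13 (0.76), NFKBIA (0.71) and KLF15 (0.70), and FOXO1 had FBXO32 (0.66), FOXO3 (0.65) and KLF15 (0.64). FOXO3 had ZCCHC6 (0.75), LRP10 (0.73) and ABHD4 (0.72), GABARAPL1 had LRP10 (0.68), CAMKK2 (0.68) and JAK1 (0.67), and SQSTM1 had KCNC4 (0.73), TBC1D17 (0.71) and FBXO32 (0.69). Other members thus appear among the first 3 for FBXO32, FOXO1 and SQSTM1. Each gene was entered by its most alike probe, so that genes with more probes could appear more easily.

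Other genes of these pathways were counted by lists, in each case by the main probe of the gene. The lists were chosen with earlier results of these data known, so a count above the share over all probes is no independent evidence. Over all kept probes, the shares called higher and lower with age were 21.8% and 23.5% in LW and 28.6% and 28.0% in MS. They were 25.1% and 25.7% in LWMS and 20.8% and 23.8% in MSLW, and stand beside each count with age in the lists below. These shares cover every kept probe, whereas the lists use the brightest probe of each gene. Of 16 measured ubiquitin ligases and partners, 9 were higher and 2 lower at day 110 in LW, 7 and 2 in MS, 7 and 1 in LWMS, and 8 and 2 in MSLW. FBXO40, a muscle ligase for the insulin signalling protein IRS1, rose by 1.53 ± 0.17 in LW and 2.29 ± 0.18 in MS, and was 1.05 ± 0.17 higher in MS at day 110 (adjusted p = 2.05e-06). UBE2B, a ubiquitin-conjugating enzyme, rose by 1.52 to 1.68 in the 4 genotypes. UBB, a ubiquitin gene, was lower by 0.25 to 0.31, since its differences lay between -0.31 and -0.25, and TRAF6, a ligase of inflammatory signalling, was below LW in MS fetuses of both ages (-1.32 ± 0.31 and -1.38 ± 0.31).

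Of 22 measured FOXO relatives and upstream regulators, 9 were higher and 3 lower with age in LW, 13 and 1 in MS, 11 and 2 in LWMS, and 6 and 1 in MSLW. KLF15, a transcription factor that responds to glucocorticoids, rose by 1.71 to 2.06 in the 4 genotypes. NR3C1, the glucocorticoid receptor, was lower at day 110 in all 4 genotypes (-0.69 to -0.32), and MS fetuses had less of it than LW fetuses at day 110 (-0.37 ± 0.08). PPARGC1A, a coactivator of mitochondrial genes, rose in all 4, by 1.30 ± 0.11 in LW, 1.09 ± 0.13 in MSLW, 0.76 ± 0.11 in MS and 0.60 ± 0.11 in LWMS. AKT1, the kinase upstream of the FOXO factors, was lower at day 110 in LW (-0.51 ± 0.11) and was not called in the other genotypes, and at day 90 MS stood below LW (-0.49 ± 0.11).

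Known FOXO targets outside autophagy, a list also chosen with earlier results known, changed in 11 or 12 of 16 cases, where 44.6% to 56.6% of all kept probes changed. By direction, 20.8% to 28.6% of all kept probes were called higher and 23.5% to 28.0% lower. Of 16 measured, 10 were higher and 2 lower in LW, and 9 were higher and 2 lower in each of MS, LWMS and MSLW, with medians of 0.82, 0.89, 0.83 and 0.68. SOD2, the mitochondrial superoxide dismutase, rose by 2.20 to 2.48. PDK4, the kinase that limits glucose oxidation, rose by 3.19 ± 0.37 in MS, 2.56 ± 0.36 in LWMS, 2.16 ± 0.41 in MSLW and 2.07 ± 0.36 in LW. The 2 that were lower in each genotype were MSTN, or myostatin, an inhibitor of muscle growth (-3.24 to -2.39), and KLF5 (-0.77 to -0.63). Between MS and LW at day 110 none of the 16 was higher and 1, MSTN, was lower in MS (-0.58 ± 0.17). Of all kept probes 13.7% were higher and 15.2% lower, 29.0% together. Scaling to the 75th percentile called 4 of the 16 higher and 1 lower, beside 7195 higher and 5447 lower of all 42436 kept probes.

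**Figure D5:**
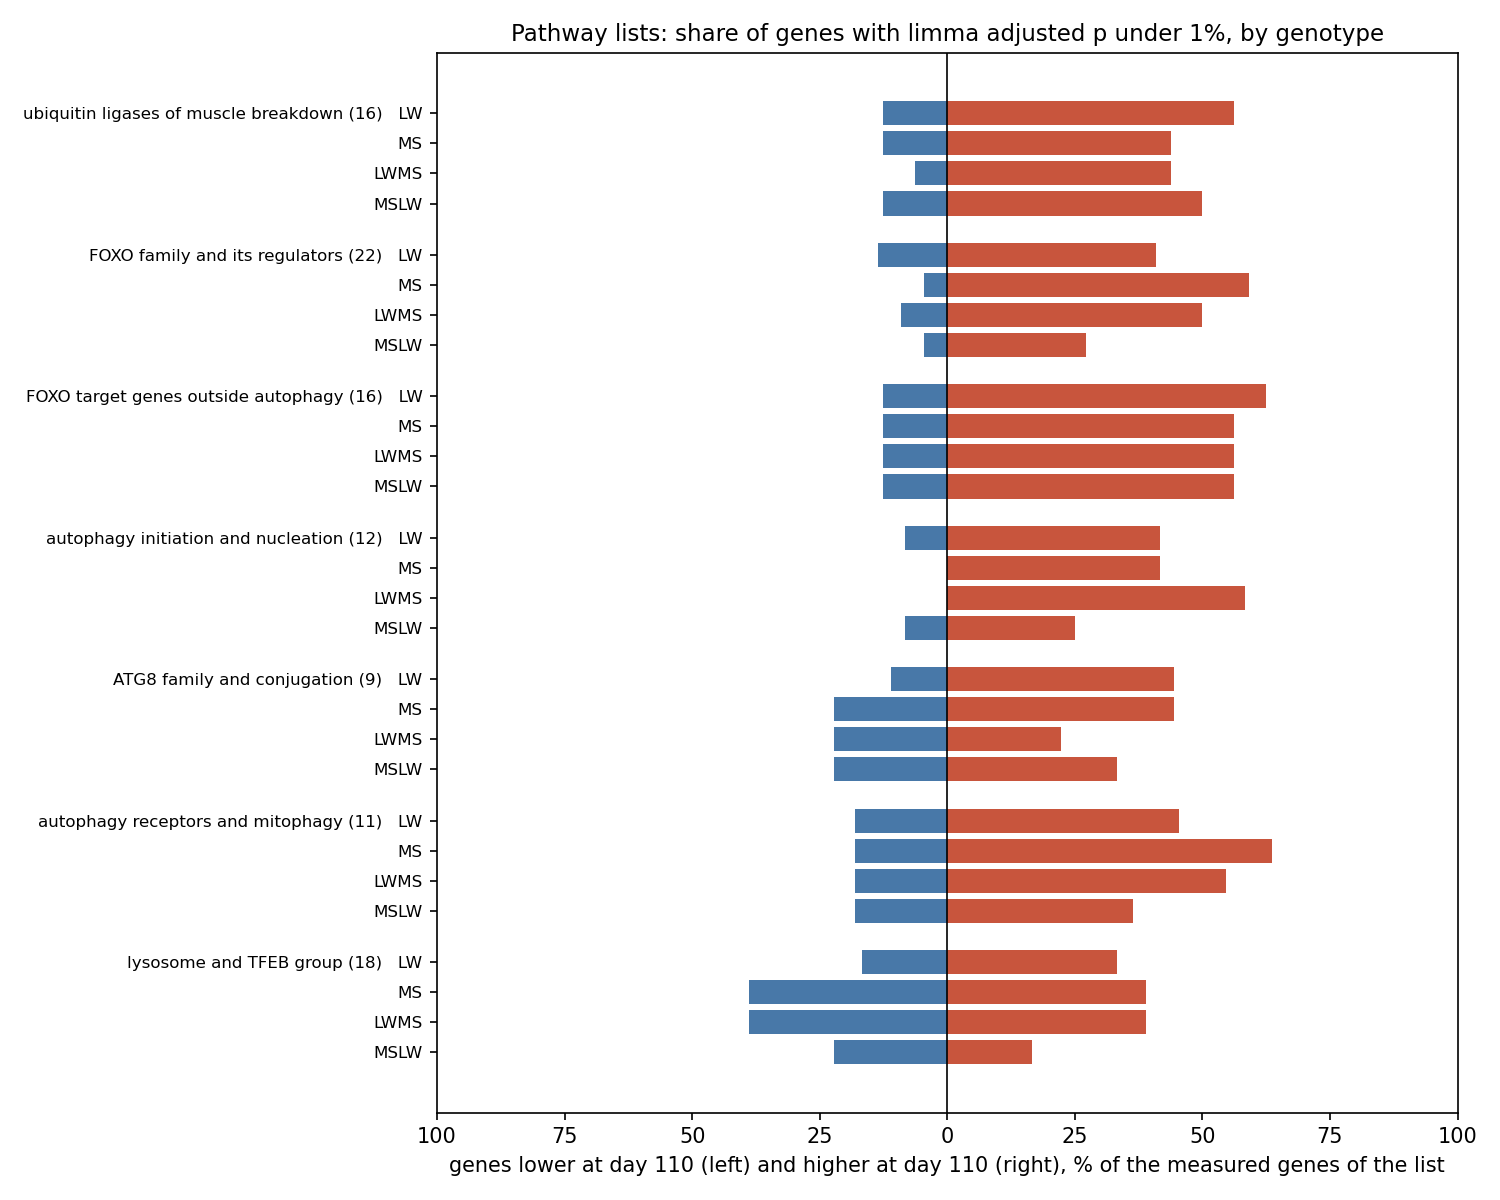
Share of the measured genes of each pathway list (number in brackets) called lower (blue, left) or higher (red, right) at day 110 in each genotype, in percent; called means a limma adjusted p under 1%. In the lysosome list as many genes were lower as higher in MS and LWMS, while in the list of FOXO targets 9 or 10 of 16 were higher. Of all kept probes, 20.8% to 28.6% were called higher and 23.5% to 28.0% lower, depending on the genotype.

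Of 12 measured genes that start the autophagosome, 5 were higher and 1 lower in LW, 5 and 0 in MS, 7 and 0 in LWMS, and 3 and 1 in MSLW, and scaling to the 75th percentile raised MS to 8. ATG9A, a membrane protein that supplies lipid, rose by 0.60 to 1.14 in the 4 genotypes and RB1CC1, part of the initiating kinase complex, rose by 0.64 to 0.79. UVRAG rose by 1.11 ± 0.14 in LW and 0.52 ± 0.14 in LWMS and had -0.09 ± 0.15 in MS. At day 110 MS minus LW was -1.29 ± 0.14 for UVRAG (adjusted p = 1.75e-10), and its change with age differed between the breeds (-1.20 ± 0.20). BECN1, a core subunit of the nucleating lipid kinase, was higher in MS at both ages (0.58 ± 0.09 and 0.55 ± 0.09).

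Of 9 measured ATG8 proteins and conjugation enzymes, 4 were higher and 1 lower in LW, 4 and 2 in MS, 2 and 2 in LWMS, and 3 and 2 in MSLW. GABARAP, the closest relative of GABARAPL1 in this list, was lower at day 110 in MS (-0.58 ± 0.10), LWMS (-0.49 ± 0.10) and MSLW (-0.53 ± 0.11), and had -0.18 ± 0.10 in LW, where it was not called. ATG10 rose by 0.64 to 1.42. Among 11 receptors, 5 were higher and 2 lower in LW, 7 and 2 in MS, 6 and 2 in LWMS, and 4 and 2 in MSLW. CALCOCO2 (0.87 to 1.32) and PINK1, the kinase that marks damaged mitochondria (0.861 to 1.103), rose, while BNIP3L, a mitophagy receptor of the outer mitochondrial membrane, was lower in all 4 genotypes (-1.16 to -0.88), as was OPTN (-0.90 to -0.46).

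Of 18 lysosomal genes and their regulators, 6 were higher and 3 lower in LW, 7 and 7 in MS, 7 and 7 in LWMS, and 3 and 4 in MSLW, and scaling to the 75th percentile gave 9 and 4 in MS. MITF, a regulator of lysosomal genes, rose by 0.75 to 1.20 and CTSL, a cathepsin, by 0.46 to 0.71. CTSK, another cathepsin, was lower by values from -1.34 to -0.78, and HEXA, a lysosomal hexosaminidase, stood below LW in MS fetuses of both ages (-0.69 ± 0.07 and -0.78 ± 0.07).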

How the data were processed

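RNA of 61 fetal longissimus muscles was measured on 1-colour arrays. The authors deposited the intensity of every spot of each array, not normalized between arrays (Agilent Feature Extraction 10.10.1.1), and a table of log2 values that the authors had quantile normalized. The genome build was not given in the sources used here. The members and lists were chosen with earlier results of these data known. Control spots were dropped, spots marked non-uniform were set to missing, the background-corrected intensity was quantile normalized and log2 transformed, and 42436 probes were kept by the filter given in the report. Of these, 19176 carried a symbol, from the published lists or from array names known to RefSeq or to a table of gene symbols. Groups came from the sample labels. The 8 groups were fitted with limma 3.58.1 (R 4.3.3, moderated two-sided tests, Benjamini-Hochberg over all kept probes, threshold 1%). The random sow effect of the study was left out because the labels do not give the sow. Array number and background limit the precision. Named genes are the members, the 3 genes most like each, and genes from the 2 largest changes in each direction per list and comparison. Not all of the latter are named, and which ones are follows no rule given here. Values of these genes in further comparisons were chosen after they were seen. The code was tested on simulated data. The sequences of the other probes are not reported here.

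Alternatives were the median signal, the deposited log2 values, normexp with offset 50, scaling to the 75th percentile, no filter, a filter on all arrays, non-uniform spots kept, slide as a block, no moderation, the mean of all probes of a gene, LW and MS alone, and MSLW fetuses of day 110 left out in turn, to which the probes named by the array alone and LW fetus 9 of day 110 left out were added after the data were seen.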

Additional observations from a re-analysis of the deposited data

Results flagged for a closer look

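In 48 checks (6 genes in 8 groups, main probe), 4 had 1 fetus far from the rest by Dixon's test, where chance alone flags about 1 in 20 groups. FOXO3 in MS at day 90 had its lowest fetus (number 3) at 12.27, with the next at 12.47. FOXO3 in LWMS at day 90 had its highest fetus (number 6) at 13.04, with the next at 12.66. GABARAPL1 in MSLW at day 110 had its highest fetus (number 2) at 12.08, with the next at 11.67. SQSTM1 in LWMS at day 110 had its lowest fetus (number 7) at 13.49, with the next at 13.89.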

How the results depend on the processing

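No paired analysis was possible because the labels give no replicate number that groups share; the slide was used as a block instead. Of the differences of single genes, 587 kept their direction and side of the threshold over the alternatives, 22 passed it newly, 5 lost it and 13 changed sign. All sign changes were of values that were not called at first. FOXO3 between MS and LW at day 90 turned to -0.009 with the median signal, -0.0087 with the deposited values, -0.0101 with normexp and -0.0179 with the mean of its probes. At day 110 FOXO3 turned to 0.18 with scaling to the 75th percentile and to 0.39 with the mean of its probes, and its difference in age change to 0.16 and 0.41. With the 75th percentile SQSTM1 turned to 0.0537 at day 110 and to 0.0358 in its difference in age change. TRIM63 turned to 0.15 at day 110 with the mean of its probes. Without LW fetus 9 of day 110, FBXO32 turned to -0.16 and GABARAPL1 to -0.0489 at that age.

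The number of genes called higher with age in MS was 6 with the 75th percentile and with the mean of probes (3 in the report). In MSLW it was 2 to 4 when each fetus of day 110 was left out in turn, with 2 without fetus 5. Between MS and LW at day 90, 1 gene was lower with the median signal, the deposited values, normexp or the slide as a block, and 1, 1, 2 and 1 probes. At day 110, 1 gene was higher with the mean of probes. For the difference in age change 1 gene and 2 probes were lower with the slide as a block, 2 probes were lower with LW and MS alone, and 2 were higher with the 75th percentile. For the age by paternal genotype interaction 1 probe was lower with the slide as a block, and 0 to 1 when MSLW fetuses were left out, with 1 without fetus 5. Alternatives chosen after seeing the data were the probes named by the array alone and LW fetus 9 of day 110 left out. The first gave 4 genes higher with age in MS and 5 in LWMS. It also gave 1 probe higher and 3 lower between MS and LW at day 110, 0 higher in the difference in age change and 1 higher in the maternal interaction. The second gave 1 gene and 2 probes lower in the difference in age change, and 1 probe lower in the paternal interaction.

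Over all kept probes, 130 were higher and 109 lower between the reciprocal crosses at day 110 without MSLW fetus 3 (232 and 157 in the report's fit), and the paternal interaction had 111 and 196 (58 and 138). With the slide as a block the maternal interaction had 899 and 1245 (493 and 798) and the paternal 115 and 162. Crosses against the parental mean gave 18, 18, 17 and 8 higher and 2, 2, 2 and 1 lower at day 110 (32 and 1), and 11, 11, 6 and 4 higher at day 90 (21), with the median signal, the deposited values, normexp and the filter on all arrays. Scaling to the 75th percentile moved the median change of all probes in MS from 0.0335 to 0.1253. It turned the split of the difference in age change from 1085 higher and 1443 lower to 2013 and 1149, that of the maternal interaction from 493 and 798 to 729 and 692, and that of the paternal interaction from 58 and 138 to 100 and 116. The cause was not tested.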
